A study of Mus musculus with 4 samples.

Results

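Muscle atrophy ligases and FoxO factors are 10 genes of the protein breakdown programme of skeletal muscle: the ubiquitin ligase genes Fbxo32, Trim63, Fbxo30 and Fbxo31, the transcription factors Foxo1, Foxo3 and Klf15, the translational repressor Eif4ebp1, and the autophagy genes Bnip3 and Map1lc3b. They were taken by name, and every probe set whose only annotated gene symbol is one of them was kept, which gave 26 of 34945 single-gene probe sets for 10 of 18193 genes. The members were chosen with earlier results of these data known, so their shares beside those of all genes are descriptions and no independent support. All 10 genes had at least 1 probe set above the signal floor, which 12801 genes passed. RNA of the tibialis anterior, a mostly fast-twitch leg muscle, of C57BL/6J mice was hybridised to 4 Affymetrix Mouse Genome 430 2.0 arrays, with 1 array in each group. The groups were mdx/MMP-2-/- mice (here mdx/MMP-2 null) at 3 months, mdx mice at 3 months, mdx/MMP-2 null mice at 1 month and mdx mice at 1 month. All 4 groups carry the mdx mutation, which abolishes full-length dystrophin, and no muscle with dystrophin was analysed here. The null mice also lack matrix metalloproteinase 2, a secreted gelatinase. With 1 array per group no difference between arrays has a replicate check, and "higher" and "lower" describe the arrays. Whether an array held RNA of 1 animal or of a pool, and at what time of day muscles were taken, is not given in the labels.

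In wasting muscle, a small set of ubiquitin ligases marks myofibrillar and regulatory proteins for the proteasome. Their genes are switched on by FoxO transcription factors, which growth factor signalling through Akt keeps out of the nucleus, and by the glucocorticoid receptor, partly through Klf15. FoxO factors also drive genes of autophagy, by which organelles and bulk cytoplasm reach the lysosome. In mdx muscle, cycles of fibre necrosis and regeneration at about weaning age are followed by a calmer phase with larger, centrally nucleated fibres.

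Upstream regions of 3 members are shown. Trim63 is the textbook target of FoxO and glucocorticoid receptor acting side by side, and Klf15 and Bnip3 are the only other members with a single probe set. These 3 are also the only members whose region held any of the motifs below, so the regions shown are no sample of the members. Each is the 250 bases before the RefSeq gene start in GRCm38.p6, 5′ to 3′ on the gene's strand. Capitals mark the letters GTAAACA (a core of FoxO binding), GNACA followed 3 bases on by TGTNC (a palindrome of the glucocorticoid receptor) and CACGTG (the E-box bound by clock proteins among others), searched on both strands. The part of collection time in the differences of Klf15, Bnip3 and the glucocorticoid response genes was not tested.
Trim63: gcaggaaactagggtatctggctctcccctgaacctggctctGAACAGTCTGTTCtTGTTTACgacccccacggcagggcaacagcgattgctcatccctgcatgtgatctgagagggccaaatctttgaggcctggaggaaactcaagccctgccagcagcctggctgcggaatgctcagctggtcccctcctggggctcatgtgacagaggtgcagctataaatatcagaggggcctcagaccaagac
Klf15: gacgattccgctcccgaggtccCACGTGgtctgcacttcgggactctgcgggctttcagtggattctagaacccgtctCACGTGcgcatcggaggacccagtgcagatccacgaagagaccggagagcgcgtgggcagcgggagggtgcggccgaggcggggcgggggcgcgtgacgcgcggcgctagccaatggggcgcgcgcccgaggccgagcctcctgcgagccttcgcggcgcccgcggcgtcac
Bnip3: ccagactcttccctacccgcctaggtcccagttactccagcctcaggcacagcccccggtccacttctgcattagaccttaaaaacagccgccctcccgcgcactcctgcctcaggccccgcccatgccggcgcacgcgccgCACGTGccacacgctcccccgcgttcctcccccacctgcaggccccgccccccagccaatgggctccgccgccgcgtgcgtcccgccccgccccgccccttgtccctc
The Trim63 region lies at chr4:134314870-134315119 on the plus strand, that of Klf15 at chr6:90462326-90462575 on the plus strand and that of Bnip3 at chr7:138909507-138909756 on the minus strand. In the Trim63 region the receptor palindrome spans bases 208 to 196 before the start and the FoxO core, on the opposite strand, bases 194 to 188, so the motifs do not overlap. In the Klf15 region CACGTG begins 228 and 172 bases before the start, and in that of Bnip3 108 bases before it. Of 32851 upstream regions of the same length, 3.17% hold the FoxO core, 0.387% the palindrome and 6.02% CACGTG. Of the 8 members with an entry, Trim63 alone had a FoxO core or a palindrome in this window, and Klf15 and Bnip3 alone had CACGTG. Fbxo32 and Eif4ebp1 had no entry. A match of letters is a description and no evidence of binding.

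Deposited MAS5 signals were not on a common scale. Their 2% trimmed means were 123.6 (null, 3 months), 91.3 (mdx, 3 months), 98.4 (null, 1 month) and 92.1 (mdx, 1 month), so the signals below are quantile scaled, on a linear scale with a floor of 17.4. Mmp2 had scaled signals of 40.9 in null against 805 in mdx at 3 months and of 24.7 against 985 at 1 month. All 12 skeletal muscle fibre markers were above the floor, with no member past 1.5-fold in any of the 4 differences. Their signals are among the highest on each array, where quantile scaling gives all 4 arrays the same values. A flat result is thus largely set by the scaling and is no measure of fibre content. Actb probe sets at the 3' end and the 5' end, whose signals part when RNA is degraded, had a 3'/5' ratio of 2.09 in null and 2.36 in mdx at 3 months, against 1.05 in null and 1.19 in mdx at 1 month. The same ratio of Gapdh was 0.935 in null and 0.936 in mdx at 3 months, against 0.850 in null and 0.883 in mdx at 1 month. The Actb ratio moves with age more than that of Gapdh, and its part in the age differences below was not tested. Where a gene had 2 probe sets above the floor on all 4 arrays (4309 genes), their log2 differences between arrays lay a median of 0.21 to 0.33 apart, with a 95th percentile of 0.79 (genotype, either age), 1.02 (age, null) and 0.94 (age, mdx). That gap is a measure of probe error only and leaves out the spread between animals. In bulk muscle, fewer cells of a type and less RNA per cell cannot be told apart.

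Between 1 and 3 months, 4 of the 10 members were at least 1.5-fold higher in mdx muscle and none at least 1.5-fold lower: Fbxo32, Klf15, Bnip3 and Fbxo30. Of all 12801 genes, 5.97% were higher by that size in mdx and 7.27% lower. In mdx/MMP-2 null muscle, 1 of the 10 members, Fbxo32, was higher by 1.5-fold or more and none lower, where 7.41% of all genes were higher by that size and 6.7% lower. The members' median log2 age difference was 0.27 in null and 0.44 in mdx, against 0.0006 and 0.00 for all genes. For each of these 4 genes the age difference was smaller in null, and the genotype difference was positive at 1 month and negative at 3 months for the representative probe set. The genotype comparisons and the age comparisons share arrays, so a single high signal in the mdx array at 3 months enters both. A single low signal in the mdx array at 1 month likewise enters the age comparison in mdx and the genotype comparison at 1 month. The 4 genes were picked by their age difference in mdx, and that choice by itself favours the pattern of signs given here. At a 2-fold size, Fbxo32 and Klf15 were higher with age in mdx, beside 0.976% of all genes higher and 1.55% lower, and no member was past it with age in null (1.47% and 1.22% of all genes). Between genotypes no member was past 2-fold at 3 months (1.18% of all genes higher and 0.422% lower) or at 1 month (0.57% and 0.578%). The background was also taken over the 7074 genes with a mean signal at or above the 75th percentile of 85.4, a choice made after seeing the data. Of these, 3.8% were at least 1.5-fold higher and 4.91% lower with age in mdx, and 5.26% and 5.19% with age in null. Between genotypes 3.31% were higher and 1.29% lower in null at 3 months, and 1.02% and 1.09% at 1 month.

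**Figure D1:**
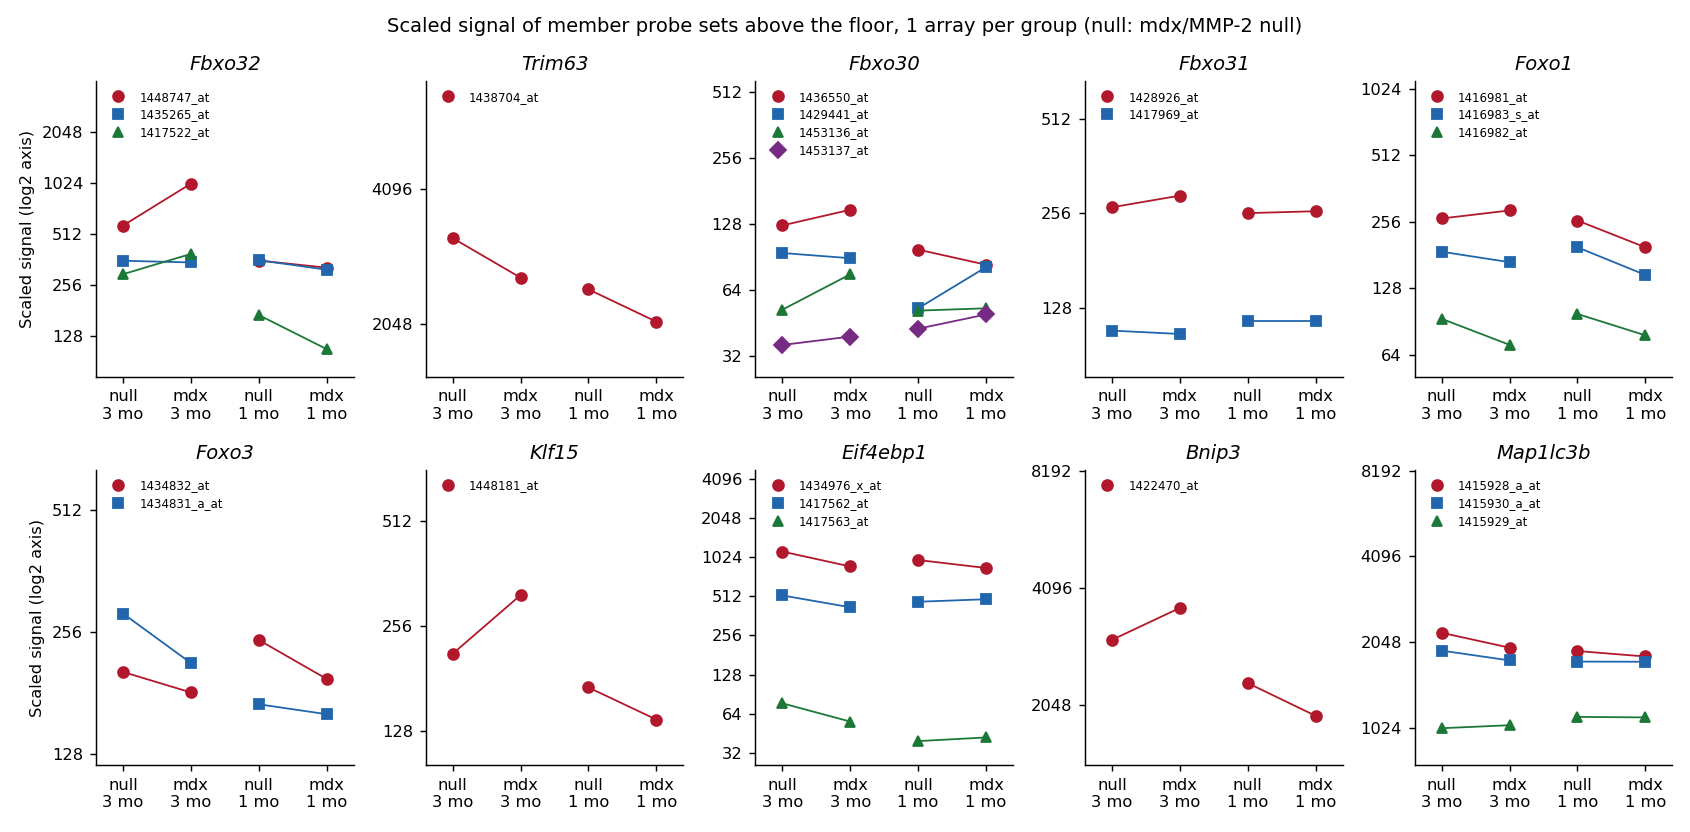
Scaled signal (linear values on a log2 axis) of the 23 member probe sets above the floor, 1 panel per gene, with the arrays on the horizontal axis and a line joining the 2 genotypes of an age. Fbxo32 (2 of 3 probe sets), Klf15 and Bnip3 peak in the mdx array at 3 months. So do Fbxo30 1436550_at and 1453136_at, Fbxo31 1428926_at and Foxo1 1416981_at. Trim63 and 2 probe sets of Foxo1 are higher in null at both ages. The same holds for Foxo3 1434832_at and 1434831_a_at, Eif4ebp1 1434976_x_at, Map1lc3b 1415928_a_at and 1415930_a_at, and Fbxo32 1435265_at.

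Fbxo32 encodes atrogin-1, the F-box subunit that directs an SCF ubiquitin ligase to MyoD and the initiation factor eIF3f. Its representative probe set, 1448747_at, had scaled signals of 572 in null and 1010 in mdx at 3 months, and of 355 in null and 323 in mdx at 1 month. The mdx array at 3 months was the highest and both 1-month arrays were the lowest. It was thus 1.61-fold higher at 3 months in null and 3.13-fold higher in mdx, and 0.125% of all genes were higher by as much in mdx. A second probe set, 1417522_at, gave 295 and 389 at 3 months against 170 and 107 at 1 month, an age fold of 1.74 in null and 3.64 in mdx. Both probe sets followed the same order of age, but the third, 1435265_at, stayed within 314 and 357 on all 4 arrays. The age difference of Fbxo32 in mdx therefore depended on the probe set, and averaged over the 3 probe sets the log2 difference was 0.49 in null and 1.22 in mdx.

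Between genotypes, Fbxo32 at 3 months was 1.77-fold lower in null than in mdx by its representative probe set and 1.32-fold lower by 1417522_at, and 1435265_at hardly differed (355 against 347). At 1 month the same probe sets were higher in null by 1.1-fold, 1.59-fold and 1.14-fold. For the representative probe set the log2 genotype difference was -0.82 at 3 months and 0.14 at 1 month. Of all genes, 0.976% were as low or lower in null at 3 months. The percentile of 0.79 given above is of the gap between the differences of 2 probe sets, so it sets no bound for the single value of -0.82. Here 1448747_at gave -0.82 and 1435265_at 0.03. The log2 genotype difference of Fbxo32 at 3 months was -0.40 both with unscaled signals and with the mean of the probe sets. It was past 1.5-fold in 6 of 8 alternatives, some of which, such as the other floors, could not move it.

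Trim63 encodes MuRF1, a RING-finger ubiquitin ligase of the sarcomere that acts on thick filament proteins. Its single probe set had signals of 3183 in null and 2596 in mdx at 3 months, and of 2444 in null and 2069 in mdx at 1 month. The null array was the higher at each age and the 3-month array the higher in each genotype. The differences were small: log2 values of 0.29 and 0.24 for genotype at 3 and 1 months, and of 0.38 and 0.33 for age in null and mdx. Between 16.0% and 17.7% of all genes were as high in each of the 4 comparisons, and none of the 4 was past 1.5-fold. Over the alternative settings the log2 difference reached 0.62 for genotype at 3 months and 0.69 for age in null, both without scaling.

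Fbxo30 encodes MUSA1, an F-box ligase known to be induced by denervation in mouse muscle and held down by BMP signalling. Its representative probe set, 1436550_at, had signals of 126 in null and 148 in mdx at 3 months, and of 97.5 and 83.2 at 1 month. The 3-month arrays were the higher in both genotypes, by 1.29-fold in null and 1.78-fold in mdx. The other 3 probe sets did not share one pattern. Probe set 1429441_at gave 94.1 and 89.1 at 3 months against 52.6 and 81.1 at 1 month, so that its low value was the null array at 1 month, while 1453137_at was lower at 3 months in both genotypes. With the mean of the 4 probe sets the log2 age difference in mdx was 0.29, under 1.5-fold.

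Fbxo31, an F-box gene best known for the destruction of a cyclin after DNA damage, varied least among the ligases. Its probe set 1428926_at had signals of 268 in null and 292 in mdx at 3 months, and of 257 and 260 at 1 month. The other, 1417969_at, had 109 and 106 against 116 and 116. No log2 difference of either exceeded 0.17 in size.

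**Figure D2:**
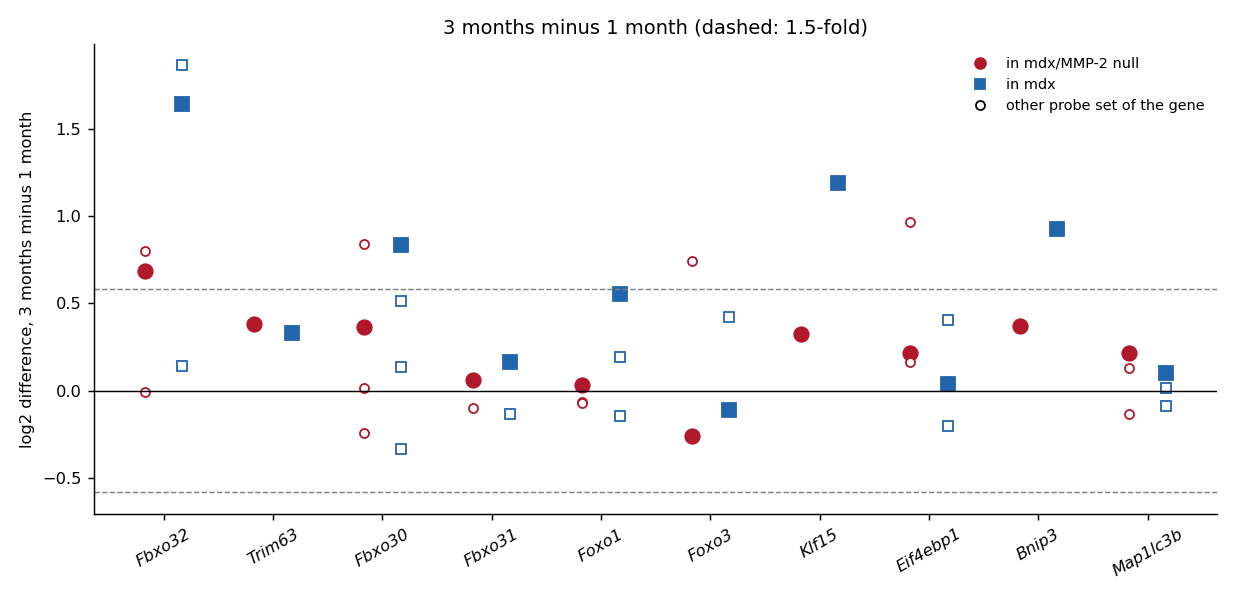
Log2 difference of 3 months minus 1 month for each member, in mdx/MMP-2 null (circles) and mdx (squares), with filled marks for the representative probe set, open marks for other probe sets and dashed lines at 1.5-fold. In mdx Fbxo32, Klf15, Bnip3 and Fbxo30 lie above the upper line, and in null Fbxo32 is the one gene whose representative lies above it, with single open marks of Fbxo32, Fbxo30, Foxo3 and Eif4ebp1.

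Klf15, a Krüppel-like factor that is a direct target of the glucocorticoid receptor and in rat muscle acts with it on Fbxo32 and Trim63, had 1 probe set. Its signals were 213 in null and 314 in mdx at 3 months, and 171 in null and 138 in mdx at 1 month. As for Fbxo32, the mdx array at 3 months was the highest and the mdx array at 1 month the lowest. Klf15 was 1.25-fold higher at 3 months in null and 2.28-fold higher in mdx, where 0.437% of all genes were higher by as much. At 3 months it was 1.47-fold lower in null than in mdx, just under the 1.5-fold size, and at 1 month 1.24-fold higher. Without scaling the log2 genotype difference at 3 months was -0.12 in place of -0.56.

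Foxo1 and Foxo3 encode the FoxO factors most studied in muscle wasting. Foxo1 had 3 probe sets above the floor and 1 more at the floor on all arrays. Its representative, 1416981_at, had 265 in null and 288 in mdx at 3 months, and 259 in null and 196 in mdx at 1 month, with the mdx array at 1 month below the other 3. All 3 measured probe sets were higher in null at 1 month, by 1.25-fold to 1.33-fold, and 8.05% of all genes were as high as the representative. At 3 months they did not agree in direction, with log2 differences of -0.12, 0.16 and 0.39, and without scaling the first was 0.34. The age difference was 0.55 in mdx for 1416981_at, but 0.19 and -0.14 for the others.

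Foxo3 had signals of 205 in null and 182 in mdx at 3 months and of 245 and 197 at 1 month by 1434832_at, and of 285 and 215 against 170 and 161 by 1434831_a_at. The first probe set was lower at 3 months in both genotypes and the second higher, so no direction with age can be given. The second was 1.67-fold higher in null and 1.34-fold higher in mdx. Both were higher in null at both ages, by 1.12-fold and 1.32-fold at 3 months and by 1.25-fold and 1.06-fold at 1 month, under 1.5-fold in each case. Another probe set lay at the floor on all arrays.

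Eif4ebp1 encodes a protein that binds the cap-binding factor eIF4E and holds back translation until mTOR phosphorylates it. By its representative probe set, 1434976_x_at, signals were 1130 in null and 868 in mdx at 3 months, and 973 and 845 at 1 month. Probe set 1417562_at gave 520 and 422 at 3 months and 465 and 486 at 1 month, and 1417563_at 77.0 and 55.7 against 39.4 and 42.1. All 3 were higher in null at 3 months, by 1.23-fold to 1.38-fold, with 12.9% of all genes as high as the representative. With age 1417563_at was 1.95-fold higher in null, unlike the other 2. The name of 1434976_x_at marks a probe set that may cross-hybridise. Without it the log2 difference at 1 month was -0.06 in place of 0.20.

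Bnip3, a mitochondrial outer membrane protein that recruits autophagosomes and is a FoxO target in mouse muscle, had 1 probe set, with signals of 3013 in null and 3641 in mdx at 3 months and of 2330 in null and 1918 in mdx at 1 month. Both 3-month arrays stood above both 1-month arrays. Bnip3 was 1.29-fold higher at 3 months in null and 1.9-fold higher in mdx, where 1.37% of all genes were higher by as much. At 3 months it was 1.21-fold lower in null, a direction lost without scaling (log2 difference 0.02), and at 1 month 1.21-fold higher.

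Map1lc3b encodes LC3B, the ubiquitin-like protein of the autophagosome membrane. Its representative probe set, 1415928_a_at, had 2203 in null and 1954 in mdx at 3 months, and 1901 and 1819 at 1 month. The probe set 1415930_a_at had 1908 and 1762 against 1746 and 1743, and 1415929_at had 1018 and 1043 against 1116 and 1111. The largest log2 difference of these 3 in size was 0.21, for 1415928_a_at with age in null, and another probe set lay at the floor on all arrays. Map1lc3b and Bnip3 thus differed between ages by unlike amounts in mdx, with log2 differences of 0.10 and 0.92.

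**Figure D3:**
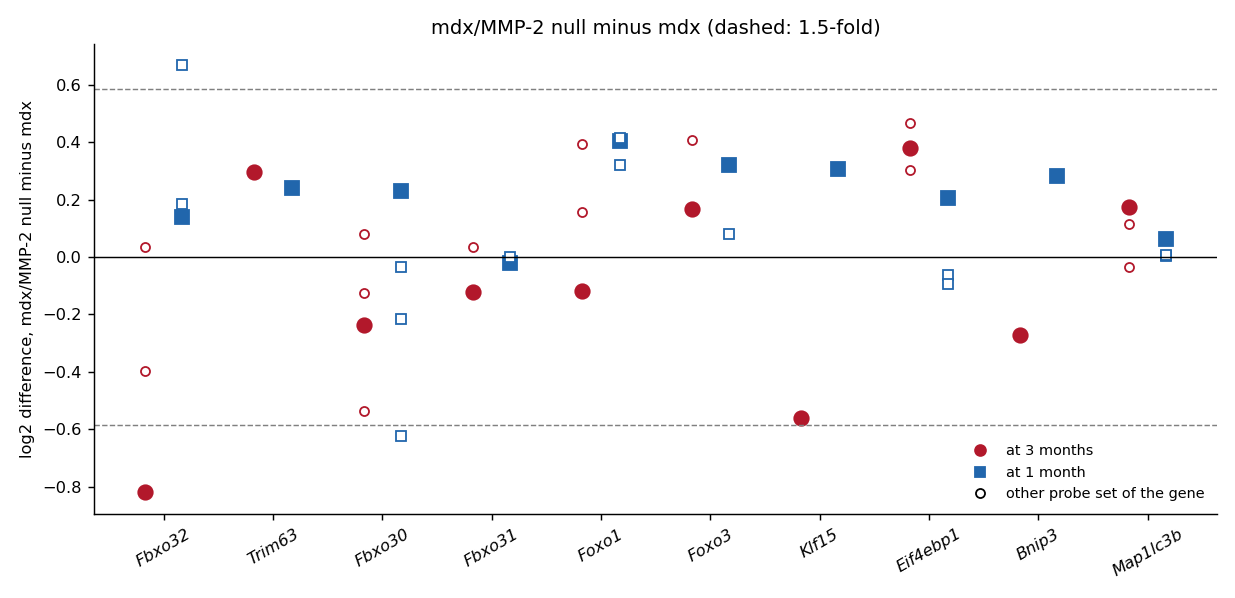
Log2 difference of mdx/MMP-2 null minus mdx for each member, at 3 months (circles) and 1 month (squares), with filled marks for the representative probe set, open marks for other probe sets and dashed lines at 1.5-fold. At 1 month 9 of 10 representative values lie above 0 and none passes 1.5-fold, and at 3 months only Fbxo32 passes it, on the lower side.

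Across the members, 9 of 10 representative values were higher in null at 1 month, with a median log2 difference of 0.23 against 0.00 for all genes. Of all 12801 genes, 5986 were higher and 6180 lower. None was past 1.5-fold in either direction, where 3.52% of all genes were higher and 3.56% lower by that much. Under median scaling, where all genes had a median of -0.10, Map1lc3b was also lower, and with the mean of all probe sets Fbxo30 was. Without _x_at and _s_at probe sets Eif4ebp1 was lower too, at -0.06. At 3 months 4 members were higher and 6 lower in null, beside 6092 and 6153 of all genes, with a median of -0.12 against 0.00. Fbxo32 alone was past 1.5-fold, on the lower side. That size was passed by 6.12% of all genes on the higher side and 3.33% on the lower. Fbxo30, Fbxo31, Foxo1 and Bnip3 lay above 0 at 3 months without scaling, where all genes had a median of 0.41.

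The genotype difference at 3 months minus that at 1 month, on the log2 scale, was -0.96 for Fbxo32, -0.87 for Klf15, -0.55 for Bnip3, -0.52 for Foxo1 and -0.47 for Fbxo30. Of all genes, 1.98% were as low as Fbxo32, 2.77% as low as Klf15, 8.6% as low as Bnip3, 9.44% as low as Foxo1 and 11.6% as low as Fbxo30. For the other members it lay between -0.15 and 0.18. No test of this quantity is possible with 1 array per group.

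**Figure D4:**
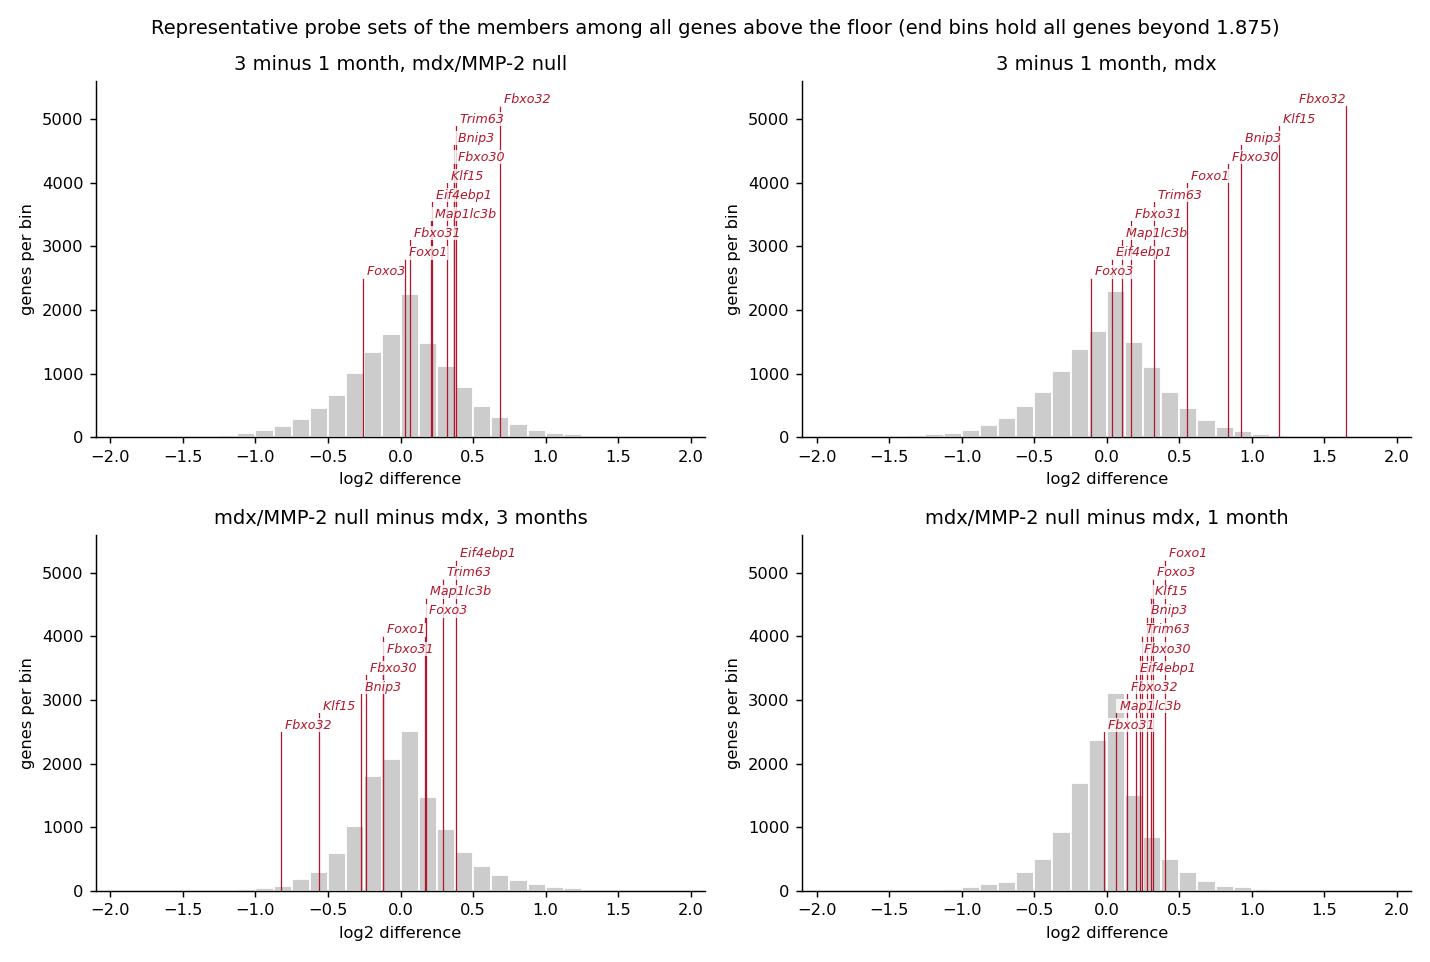
Log2 differences of the 12801 genes above the floor in bins (grey bars, number of genes per bin) for the 4 comparisons, with a red line at the representative probe set of each member. Fbxo32 and Klf15 lie in the right tail for age in mdx and in the left tail for genotype at 3 months, and at 1 month the members lie within the bulk of genes.

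A limma model with terms for genotype and age took in all 12801 genes and 4 arrays, with 1 degree of freedom left for error and any difference between the genotypes' age effects counted as error. Even Mmp2, with the signals given above, was not called for genotype by the rule that follows. An uncalled gene is thus no evidence of equal signals. No gene was called for age or for genotype at an adjusted p of 0.05 (0% of genes for each), while 1756 and 560 genes had an unadjusted p under 0.05. For age, Fbxo32 had a log2 effect of 1.17 ± 0.27 (SE) with a Benjamini-Hochberg adjusted p of 0.288 in limma, and it was higher at 3 months in both genotypes. Klf15 had 0.76 ± 0.25, Bnip3 0.65 ± 0.20 and Fbxo30 0.60 ± 0.19, with adjusted p-values of 0.332, 0.309 and 0.31 in limma. These 4 were the members with an unadjusted p under 0.05 for age. No member had one for genotype, and the largest genotype effect in size was that of Fbxo32, at -0.34 ± 0.27 with an adjusted p of 0.982 in limma.

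Over the 8 pathway lists set beside the members, most genes stayed within 1.5-fold. Of all genes, 7.41% were higher and 6.7% lower by that size with age in null, and 5.97% and 7.27% with age in mdx. Between genotypes, 6.12% were higher and 3.33% lower in null at 3 months, and 3.52% and 3.56% at 1 month. The counts of all lists below are to be read beside these shares. The lists too were chosen with earlier results of these data known. Of 17 other ubiquitin ligases and partners, Cblb, a ligase that targets the insulin receptor substrate, was 1.52-fold higher at 3 months in mdx (171 against 113), and Asb2, a ligase subunit of the fibre, was 1.56-fold lower in null than in mdx at 3 months (1032 against 1607). The list counted 1 higher and 1 lower for genotype at 3 months, none at 1 month, and 1 higher in each age comparison. Each count of 1 is 5.88% of the list. The list's median log2 age difference was -0.23 in null and 0.00 in mdx.

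Among 17 genes of the FoxO family and its regulators, 6 were past 1.5-fold with age in mdx, 3 (17.6%) on each side. Of all genes, 5.97% were higher and 7.27% lower. In null 2 were past it, 1 (5.88%) on each side, beside 7.41% and 6.7% of all genes. Akt1, the kinase that keeps FoxO factors in the cytoplasm, was 1.65-fold lower at 3 months in null (259 against 426) and 1.64-fold lower in mdx (228 against 374). Sirt1, a deacetylase that acts on FoxO factors, was 1.67-fold higher in null and 1.56-fold higher in mdx. Ppargc1a, a coactivator of mitochondrial biogenesis that restrains FoxO activity in mouse muscle, was 1.79-fold higher with age in mdx (537 against 300) and 1.55-fold lower in null than in mdx at 3 months (346 against 537). Its highest signal was thus also in the mdx array at 3 months. Irs1, which couples the insulin receptor to Akt, was 1.53-fold lower with age in mdx.

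Of 18 FoxO target genes outside the members, 5 (27.8%) were at least 1.5-fold higher with age in mdx, beside 5.97% of all genes. In null 2 (11.1%) were, beside 7.41%. None was lower by that much with age, and the median log2 age difference was -0.02 in null and 0.27 in mdx. Bcl2l11, which encodes the pro-apoptotic protein Bim, was 2.36-fold higher at 3 months in null and 1.96-fold higher in mdx, although 2 other probe sets lay the opposite way in mdx. In mdx Pik3ip1, an inhibitor of PI3-kinase, was 1.92-fold higher, Pdk4, which restrains pyruvate oxidation, 1.7-fold higher and Cdkn1b, a cell cycle inhibitor, 1.57-fold higher. Gadd45a, a stress gene, was 1.97-fold higher in null than in mdx at 3 months (897 against 455). At 1 month Pdk4 was 1.8-fold and Txnip, an inhibitor of thioredoxin, 1.72-fold higher in null, 2 of the 3 genes of the list past 1.5-fold.

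Of 30 autophagy genes none was past 1.5-fold between genotypes at either age. Pink1, a kinase that marks damaged mitochondria, was 1.81-fold higher at 3 months in null (4748 against 2625) and 1.69-fold higher in mdx (5420 against 3211), and Atg5, needed to lipidate LC3 proteins, was 1.57-fold higher in mdx. The list's medians lay between -0.09 and 0.08. Of 20 genes of translation control by mTOR, Ddit4, an inhibitor of mTOR complex activity, was 1.73-fold higher in null at 1 month (1107 against 639). Its relative Ddit4l was 1.77-fold lower at 3 months in null, and Tsc2, a subunit of the complex that restrains mTOR, 1.5-fold lower in mdx. The list's medians lay between -0.15 and 0.00.

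With age, 5 of the 17 glucocorticoid response genes (29.4%) were at least 1.5-fold higher in null, beside 7.41% of all genes. In mdx 3 (17.6%) were, beside 5.97%. In null over mdx, 5 (29.4%) were higher at 3 months, beside 6.12%, and 3 (17.6%) at 1 month, beside 3.52%. None was lower by that much. Each count of 5 holds Lcn2, which was above the floor in the null array at 3 months alone (32.4). Of any size, 12 of the 17 were higher and 5 lower in null at 3 months, beside 6092 and 6153 of all 12801 genes. Fkbp5, a chaperone of the receptor, had 395 in null and 272 in mdx at 3 months, and 225 and 147 at 1 month. It was thus higher in null at both ages, by a log2 difference of 0.54 and 0.62, unlike Klf15 and Fbxo32. Glul, glutamine synthetase, was 1.9-fold higher with age in null and 2.05-fold higher in mdx, with another probe set opposite in null. The metallothioneins Mt1 and Mt2 were 2.91-fold and 2.82-fold higher in null at 3 months, and Errfi1 and Cebpd 1.55-fold and 1.52-fold. Mt1 and Mt2 also respond to metals and inflammation. Zbtb16, a zinc finger repressor, was 1.61-fold higher in null at 1 month, with another probe set opposite, and 1.89-fold higher with age in mdx. At 3 months Zbtb16 was 1.31-fold lower in null.

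Of 14 genes tied to Klf15 through amino acid and lipid use, 2 were higher and 1 lower with age in mdx and 1 higher in null over mdx at each age. Pdk4, given above, was among them at 1 month and with age in mdx. Of 14 known substrates of the ligases, Myod1, the myogenic factor degraded through Fbxo32, was 1.59-fold lower at 3 months in null (195 against 309) and 1.61-fold lower in mdx (202 against 326). Myh7, which encodes the myosin heavy chain of slow fibres, had 602 in null against 307 in mdx at 3 months (1.96-fold) and 409 against 159 at 1 month (2.58-fold). Lists overlap in part, Pdk4, Ddit4 and others standing in 2 of them. The counts above also hold genes outside the naming rule, listed here after their values were seen: Traf6, Irs2, Skp2, Rps6kb2, Lcn2, Prodh and Bcat2. Skp2 and Prodh lay below the floor in the mdx array at 3 months, and Lcn2 on every array but null at 3 months. Their counted differences are thus bounds.

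**Figure D5:**
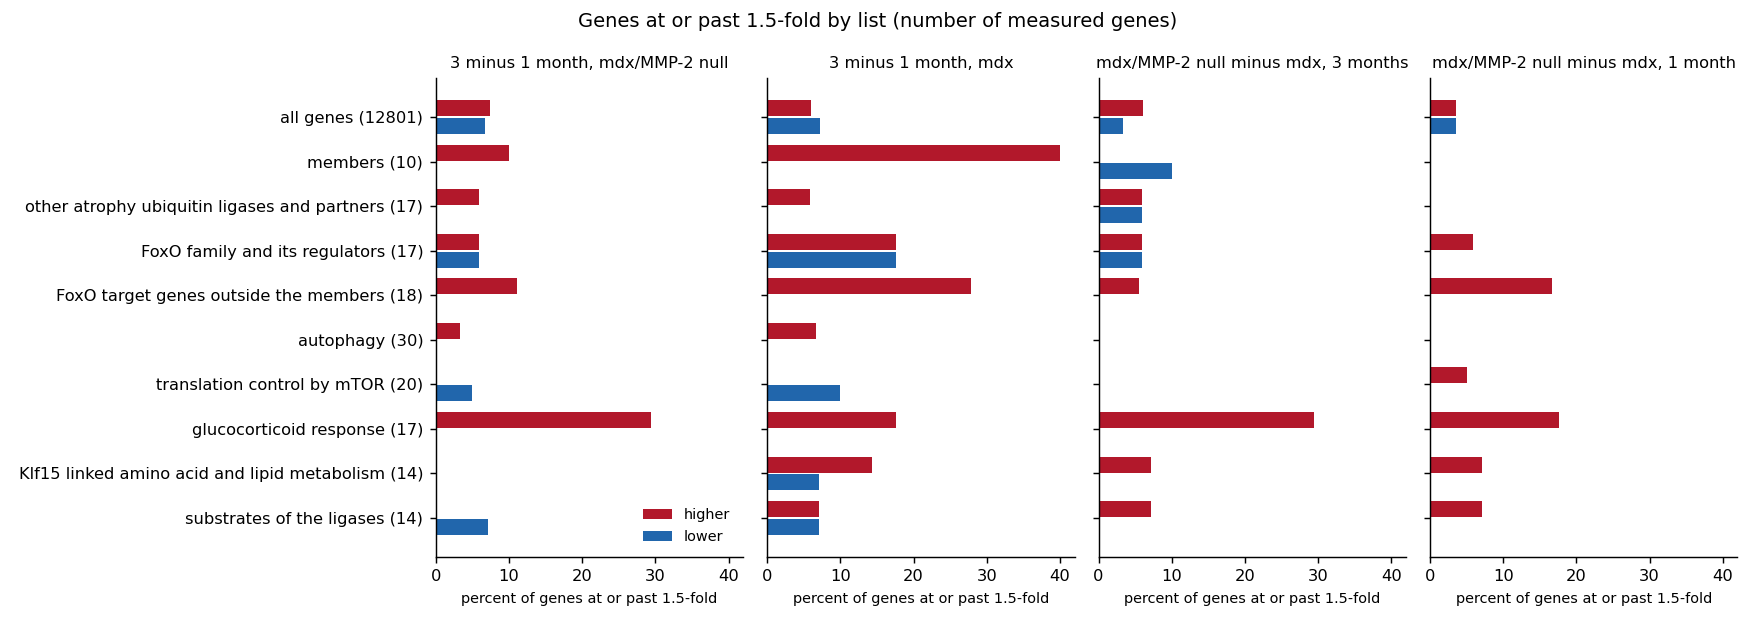
Percent of measured genes at or past 1.5-fold higher (red) and lower (blue) in all genes, the members and the 8 pathway lists, for the 4 comparisons, with the number of measured genes beside each list. The members stand at 40% higher for age in mdx, where all genes stand at 5.97%. Members and lists were chosen with earlier results of these data known, so the contrast is a description only.

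Markers of other cells differed between the arrays as well, and their counts past 1.5-fold are to be read beside the same shares of all genes. Counts of direction alone are to be read beside those of all 12801 genes. Of these, 6143 were higher and 6102 lower with age in mdx, and 6407 and 5847 with age in null. In null over mdx at 3 months, 6092 were higher and 6153 lower. With age in mdx, 7 of 8 fibroblast markers were lower, 3 of them by 1.5-fold or more, with a summed signal of 24064 at 3 months against 29703 at 1 month. In the same comparison 4 of 5 measured neutrophil markers were lower by 1.5-fold or more (107 against 160), and 9 of 12 macrophage and monocyte markers were lower, 1 by that size. With age in null, 6 of 8 fibroblast markers were lower, 4 of 5 neutrophil markers were higher by 1.5-fold or more and 11 of 12 macrophage and monocyte markers were higher. All 12 macrophage and monocyte markers were higher in null at 3 months, and their summed signal was 12373 in null against 8120 in mdx at 3 months, and 10160 against 11047 at 1 month. Of 5 measured neutrophil markers, 4 were at least 1.5-fold higher in null at 3 months, with summed signals of 668 against 107. Cxcr2, Ly6g and Retnlg had no single-gene probe set above the floor. Endothelial markers summed to 1443 in null and 1475 in mdx at 3 months, and to 2319 and 2130 at 1 month, with 8 of 8 lower at 3 months in null and 7 of 8 in mdx. Satellite cell markers were lower at 3 months in mdx for 7 of 7 genes, and in null for 3 of 7. Skeletal muscle fibre markers summed to 156664 in null and 159295 in mdx at 3 months, and to 159801 and 160079 at 1 month. Such near-equal sums are largely set by quantile scaling and do not compare fibre content. The part of the marker shifts in the members' differences was not tested.

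The genes most like Fbxo32 were sought by the root mean square distance between log2 profiles, centred over the 4 arrays, among 6948 well-detected named genes. The 5 nearest were Pde7a (0.10), Pfkfb3 (0.14), Apod (0.19), Ctxn3 (0.21) and Snai3 (0.22). Pde7a, a phosphodiesterase, had signals of 412 in null and 626 in mdx at 3 months and of 220 and 196 at 1 month. For Trim63 the nearest were Vipas39 (0.02), Mfsd1 (0.03), Irf2bp1, Zzz3 and Dusp23 (0.04 each). Vipas39, an endosomal trafficking gene, had 185 in null and 156 in mdx at 3 months and 148 and 123 at 1 month.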

How the data were processed

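The deposited values are MAS5 signal intensity per probe set on a linear scale, named by the submitters' processing notes together with Affymetrix Expression Console, both without a version; scaling settings are not given in the sources used here. RNA came from RNeasy mini kits, per the labels' protocols. Of 45101 probe sets, 64 controls were left out; 34945 carried 1 gene symbol, 932 several and 9160 none here. Gene IDs of 34741 matched the RefSeq table, which changed 0 symbols. Arrays were quantile normalized (limma 3.58.1, R 4.3.3), raised to the floor of 17.4 (50th percentile) and put on the log2 scale. A gene was represented by its probe set of highest mean. The additive model used lmFit and eBayes with Benjamini-Hochberg adjustment over 12801 genes. It was run on simulated data with equal noise for every gene and the same age effect in both genotypes. That run checks the code and does not show how the model performs on these arrays. Pathway genes were named if past 1.5-fold with a higher signal of at least 85.4 (75th percentile), at most 4 per list and comparison, largest first; the genes most like Fbxo32 and Trim63 needed that mean signal. The members and lists were chosen with earlier results of these data known. Alternatives were median, cyclic loess and no scaling, a floor at percentile 40 or 60, a pseudocount of 4.36 without floor, the mean of all probe sets, leaving out _x_at and _s_at probe sets, a 2-fold size and a variance prior following signal. The number of arrays limits the precision. Python 3.11.15, numpy 2.4.6 and pandas 2.3.3 were used.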

Additional observations from a re-analysis of the deposited data

Results flagged for a closer look

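The genotype difference of Fbxo32 ran in opposite directions at the 2 ages, lower in mdx/MMP-2 null at 3 months (log2 difference -0.82) and higher at 1 month (0.14). The log2 difference at 3 months minus that at 1 month was -0.96. The difference between the ages was not tested, since each age has 1 array per genotype, and probe set 1435265_at gave 0.03 at 3 months and 0.18 at 1 month.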

How the results depend on the processing

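Of 320 log2 differences of single members under alternatives, none moved by 1.5-fold and none that was past 1.5-fold changed sign. Many of them could not move. The other floors, 11.1 and 30.2, lie below every representative signal, and the mean of all probe sets leaves a gene with 1 probe set unchanged. Leaving out _x_at and _s_at probe sets changes the representative of Eif4ebp1 alone. The 6 member differences past 1.5-fold stayed past it in 6 to 8 of 8 alternatives, counting those that could not move them. Counts of members past 1.5-fold differed from the report as follows. For genotype at 3 months, with 0 higher and 1 lower in the report, the lower count was 0 at a 2-fold size, 2 with cyclic loess (Klf15 joining Fbxo32), 0 without scaling and 0 with the mean of all probe sets, and the higher count was 3 without scaling. For age in mdx/MMP-2 null, with 1 higher in the report, the count was 0 at 2-fold, 3 with median scaling, 7 without scaling and 0 with the mean of all probe sets. For age in mdx, with 4 higher, it was 2 at 2-fold, 5 with median scaling (Foxo1 added, at a log2 difference of 0.61) and 3 with the mean of all probe sets (without Fbxo30, at 0.29). No other count of members past 1.5-fold differed. In the additive fit, 1 member, Fbxo32, was called for age without scaling (limma adjusted p 0.0137; range over the alternatives 0.0137 to 0.325), where 79 genes were called for age and 21 for genotype; with a variance prior following signal 130 and 1 were, with median scaling 11 and 1, and with cyclic loess 0 and 1. With genes of mean signal at or above the 75th percentile as background, chosen after seeing the data, 3.8% were at least 1.5-fold higher with age in mdx. No paired analysis was possible because each group has 1 array and no replicate number to serve as a block, and the additive fit compares the genotypes with age as a term. Signals near the floor give no order, and 3 of 26 member probe sets were there on all arrays.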
